A study of Equus caballus with 19 samples.

Results

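Expression of 7 genes, ECHDC1, ENOX1, ESYT3, FOXC1, IL17RB, OLFML1 and LRRTM3, was followed across equine tenocytes exposed to interleukin-1β (IL-1β) with and without the interleukin-1 receptor antagonist (IL1Ra). The 7 genes were chosen on measured values: the study lists them among genes that IL-1β changed in both sequencing batches and that IL1Ra moved back, as candidates for a part in the contraction of collagen gels. All 7 were found by name among the 29196 gene names of each table. Because the comparisons of IL-1β with control and of IL1Ra with IL-1β chose these genes, and genes that still differed between IL1Ra and control were left out of the candidates, the changes of the 7 genes in those comparisons are described without a p-value, and counts of calls among them only restate the choice. How the responses varied together between lines, on which the choice did not rest, was tested. Gel contraction itself was not analysed here.

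Tenocytes are the resident fibroblast-like cells of tendon, which lay down and maintain its collagen matrix and which draw a collagen gel together through actin and myosin. IL-1β is an inflammatory cytokine that signals through the type 1 IL-1 receptor to nuclear factor-κB and mitogen-activated protein kinases. IL1Ra is a natural antagonist that occupies the same receptor without starting a signal.

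The cells were adult tenocytes from the superficial digital flexor tendon of Thoroughbred horses, taken post-mortem and labelled wild type. Each tenocyte line came from 1 donor, was seeded in 3D gels of bovine type 1 collagen held between pins, and was kept for 14 days in medium with serum. In the first batch, lines 1 to 5 were grown without cytokine (control) or with 1 nM IL-1β, which gave 10 libraries. In the second batch, lines 6 to 8 were grown as control, with 1 nM IL-1β, or with IL-1β at 1 nM together with IL1Ra at 100 ng/ml, which gave 9 libraries, and cells with IL1Ra alone were not sequenced. Values are gene counts that the authors normalised with DESeq2 within each batch, so levels were compared only within a batch and between libraries of the same gene.

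The libraries summed to 43.4 to 49.2 M normalised counts (M stands for counts × 1e6) in the first batch and 24.96 to 34.6 M in the second. Of 13 tenocyte markers, 12 were named in the tables and 11 reached 10 normalised counts, led by COL1A2, whereas the tendon marker TNMD was at 0 in every library of 4 of the 5 groups. The tenocyte markers summed to 1.23 to 2.02 M in control and 0.602 to 1.07 M in IL-1β libraries of the first batch. Of the 11 tested there 7 fell and 0 rose at the limma thresholds given below, which 12.8% of all genes tested passed. In the same batch the neural marker SNAP25 and the macrophage marker CD68 rose and the muscle and myofibroblast marker DES fell. Only 1 leukocyte, 2 neural and 1 skeletal muscle marker were tested there. The lymphocyte markers CD3E and CD79A were at 0. The leukocyte markers PTPRC and CSF1R and the muscle markers MYOD1, MYOG and MYH1 were at 0 in every control library. MYOG, MYH1, ACTN2 and the neural markers RBFOX3 and GFAP were at 0 in every IL-1β library. Summed ranges for control and IL-1β libraries of the first batch were 119 to 620 and 1663 to 2410.1 for 5 neural markers, 58.3 to 2076 and 310 to 3712 for 7 leukocyte markers, and 1082 to 2219 and 29.4 to 189 for 5 skeletal muscle markers. The 5 endothelial markers summed to at most 91.0 and the 3 adipocyte markers to between 79.8 and 2742 in that batch. With IL-1β in the second batch 0 of 23 markers tested passed in limma, against 0.341% of all genes. An unadjusted p under 0.05 was found for 3 markers and for 1907 of 16705 genes. A fit that blocked on tenocyte line called 1 marker higher and 4 lower, against 5.18% of all genes. The part of these marker changes in the values below was not tested, and in bulk RNA fewer cells of a type and less RNA per cell cannot be told apart.

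For each of the 7 genes, the libraries with IL-1β did not overlap those of control in either batch, and those with IL-1β + IL1Ra did not overlap those with IL-1β. Among all genes tested, the same held for 19.5% and 16.4% of genes for IL-1β against control in the first and second batch, and for 6.47% between IL1Ra and IL-1β. Between IL1Ra and control it held for 11.8% of all genes and for 1 of the 7. As the genes were chosen on these contrasts, nothing is read from these shares. In the first batch the gap between groups was under 1 read for IL17RB and LRRTM3. Line 5 with IL-1β had 5.88 and 3.87 normalised counts of these genes, and line 2 as control 5.27 and 3.50. In these libraries 1 read stood for 0.972 and 0.873 normalised counts.

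ECHDC1 encodes ethylmalonyl-CoA decarboxylase, a cytosolic enzyme that removes an aberrant acyl-CoA made as a by-product of fatty acid synthesis. Control cells of lines 1 to 5 had 2034, 1855, 2022, 1731 and 1411 normalised counts, and the same lines with IL-1β had 8849.7, 4818, 19140.2, 7938 and 5510.4. The lowest IL-1β library lay above the highest control library, and line 3 stood far above the other IL-1β libraries. Lines 6 to 8 of the second batch had 1549.9, 1194 and 1048 as control, 6209.9, 8375 and 7287 with IL-1β, and 1887, 3794 and 2496 with IL-1β + IL1Ra. The 3 conditions did not overlap, and ECHDC1 was the only one of the 7 genes for which every IL1Ra library lay apart from every control library. On the log2(normalised count + 1) scale, which is used for all fold changes here and understates those of low genes, ECHDC1 was higher with IL-1β by 2.18 ± 0.32 (SE, n = 5 per condition) in lines 1 to 5 and by 2.54 ± 0.28 (SE, n = 3 per condition) in lines 6 to 8. With IL1Ra added it was 1.47 lower than with IL-1β and 1.07 higher than control.

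ENOX1 is a cell surface NADH oxidase of the ecto-NOX family. It had 383, 576, 665, 585 and 624 normalised counts in control lines 1 to 5 and 1538, 1124, 2769, 1046 and 1174 with IL-1β. Lines 1 and 3 responded by about as much as each other and more than lines 2, 4 and 5, with log2 ratios of 2.00 and 2.06 against 0.84 to 0.96. Lines 6 to 8 had 271, 208 and 123 as control, 1803, 1028 and 1250.0 with IL-1β, and 369, 184 and 354 with IL-1β + IL1Ra. IL1Ra libraries overlapped control and lay below every IL-1β library. With IL-1β the log2-fold change was 1.35 ± 0.26 (SE) in lines 1 to 5 and 2.79 ± 0.39 (SE) in lines 6 to 8, and that of IL1Ra against IL-1β was −2.19.

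FOXC1 is a forkhead transcription factor that acts in mesenchymal, skeletal and vascular development. Control values of lines 1 to 5 were 282, 323, 314, 259 and 251 normalised counts, and those with IL-1β were 1999.7, 1731, 2739, 1469 and 2104. The control libraries differed by no more than 1.29-fold, and the log2 ratios of the 5 lines spanned 2.42 to 3.12. Lines 6 to 8 had 263, 203 and 136 as control, 1958, 1567 and 3426 with IL-1β, and 242, 675 and 541 with IL-1β + IL1Ra. In line 6 the IL1Ra library was just below its own control, whereas in lines 7 and 8 it was above. The log2-fold change with IL-1β was 2.78 ± 0.16 (SE) and 3.50 ± 0.46 (SE) in the first and second batch, and IL1Ra differed from IL-1β by −2.30 and from control by 1.20.

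IL17RB is a subunit of the receptor for interleukin-17B and interleukin-25. It was barely detected in control lines of the first batch, at 1.77, 5.27, 0, 0 and 1.11 normalised counts, and reached 89.0, 16.8, 17.8, 28.8 and 5.88 with IL-1β. The groups did not overlap, but the margin was small, since line 5 with IL-1β stood at 5.88 and line 2 as control at 5.27. The control libraries of the second batch were close together at 12.3, 14.0 and 11.1, the IL-1β libraries were spread at 72.5, 101 and 624, and those with IL-1β + IL1Ra had 21.8, 10.6 and 46.9. Line 8 had the highest value in both cytokine conditions and the lowest as control. The size of the change in the first batch, where the gene failed the filter on low values, depended on the pseudocount, with a log2-fold change of 3.47 at a pseudocount of 1 and 2.13 at 5. For the second batch it was 3.64 ± 0.84 (SE), or 2.62 without line 8, and IL1Ra differed from IL-1β by −2.84.

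LRRTM3 encodes a leucine-rich repeat transmembrane protein best known from neuronal synapses. Its normalised counts were 0.887, 3.50, 2.79, 1.94 and 1.09 in control lines 1 to 5 and 30.3, 11.7, 13.5, 11.1 and 3.87 with IL-1β. It thus rested on a few reads in most libraries, and it failed the filter on low values in both batches. Lines 6 to 8 had 1.00, 3.71 and 0 as control, 29.8, 7.98 and 56.2 with IL-1β, and 0, 0 and 1.08 with IL-1β + IL1Ra. All 3 IL1Ra libraries were at or under a floor of 3 normalised counts per library, so the mean with IL-1β was at least 10.4-fold higher than with IL1Ra, or at least 6.30-fold without line 8. No fold is given between IL1Ra and control, as both were near or under that floor. The first control libraries were near it too, and the log2-fold change with IL-1β there was 2.15 at a pseudocount of 1 and 1.31 at 5.

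ESYT3 and OLFML1 were the only members lower with IL-1β. ESYT3 is an extended synaptotagmin, a protein that tethers the endoplasmic reticulum to the plasma membrane and moves lipids between them. Its control values were 161, 170.0, 43.8, 92.6 and 33.9 normalised counts in lines 1 to 5 against 14.4, 14.98, 15.7, 19.1 and 16.5 with IL-1β. Control lines differed up to 5.02-fold and IL-1β lines no more than 1.33-fold, so the log2 ratio of a line, −0.99 to −3.42, followed its control level. The second batch had the same shape, with 108, 321 and 434 as control and 12.3, 13.2 and 11.6 with IL-1β in lines 6 to 8. With IL-1β + IL1Ra these lines had 53.1, 47.9 and 125, above every IL-1β library, and the value of each line was lower than its own control. The SD of ESYT3 over control libraries was larger than that of 91.3% of tested genes in lines 1 to 5 and of 84.3% in lines 6 to 8. Its log2-fold change with IL-1β was −2.29 ± 0.46 (SE) and −4.21 ± 0.58 (SE; −4.81 without line 6) in the first and second batch, and IL1Ra was 2.38 above IL-1β and 1.84 below control.

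OLFML1 encodes a secreted protein with an olfactomedin domain. Lines 1 to 5 had 197, 30.4, 53.1, 91.8 and 129 normalised counts as control and 0, 11.8, 0, 29.1 and 6.78 with IL-1β. Line 4 with IL-1β, at 29.1, was only just below line 2 as control, at 30.4, although each line was lower with IL-1β than in its own control. Lines 6 to 8 had 27.1, 21.6 and 72.3 as control and 2.03, 1.13 and 4.28 with IL-1β. With IL-1β + IL1Ra they had 35.2, 177 and 68.6, so that line 6 was slightly above and line 8 slightly below its own control, whereas line 7 was 8.19-fold above its control. Its log2-fold change with IL-1β was −4.07 ± 0.98 (SE) for lines 1 to 5 and −3.47 ± 0.73 (SE) for lines 6 to 8, and that of IL1Ra against IL-1β was 4.56. These sizes rest on few reads in the IL-1β libraries: with a pseudocount of 5 they were −2.99, −2.46 and 3.46. Single lines mattered as well, since the first was −3.19 without line 1, −4.77 without line 2 and −4.69 without line 4, and the last was 3.65 without line 7.

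**Figure D1:**
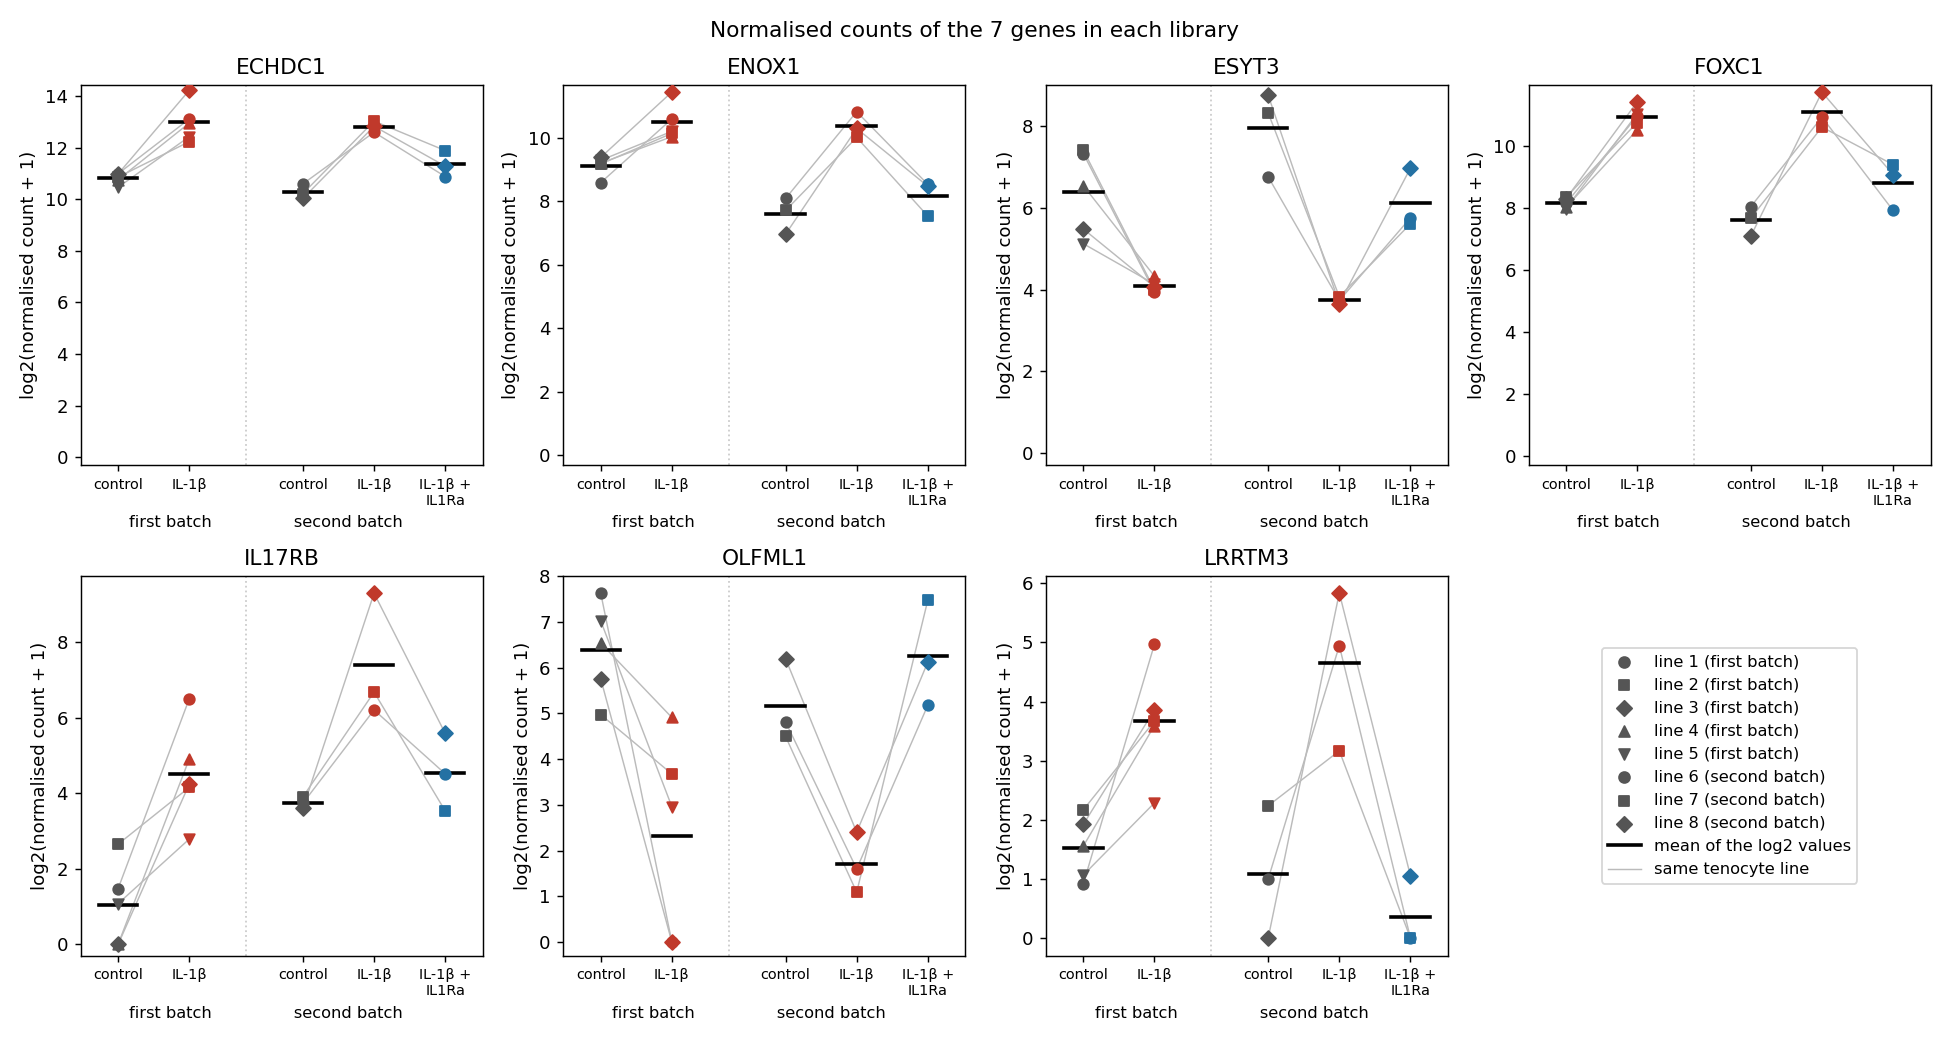
Expression of the 7 genes in each library, as log2(normalised count + 1), by condition within the first batch (lines 1 to 5, left) and the second batch (lines 6 to 8, right). Points are libraries, grey lines join libraries of 1 tenocyte line and black bars are means of the log2 values. IL-1β and control libraries do not overlap for these 7 chosen genes (nor for 19.5% and 16.4% of all genes tested in the first and second batch). For IL17RB and LRRTM3 the gap in the first batch is under 1 read. ESYT3 lies within a narrow range in all IL-1β libraries (11.6 to 19.1 normalised counts).

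A gene was called differentially expressed (DE) in limma at a Benjamini-Hochberg adjusted p under 0.05 and a log2-fold change of at least 1 in either direction. Because the 7 genes were picked on these contrasts, their counts restate that choice, and the shares over all genes are given for reference only. In the first batch 5 of the 7 genes passed the filter on low values and all 5 were DE, where 1885 of 14719 genes tested (12.8%) were DE. With the tenocyte line as a block the same 5 were DE, against 16.2% of all genes, and without line 5 OLFML1 was no longer DE. For IL-1β against control in the second batch 6 genes were tested and 4 were DE, ECHDC1, ENOX1, ESYT3 and FOXC1, against 57 of 16705 genes (0.341%), of which 45 rose and 12 fell. With the line as a block, IL17RB and OLFML1 were DE too, which made 6 of 6 against 5.18% of all genes. Without line 7 or without line 8, 0 genes of the whole table and 0 of the 6 were DE in limma, and 1351 and 762 genes had an unadjusted p under 0.05.

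With every library scaled to an equal sum, the median of all genes in the second batch shifted by −0.19 between IL-1β and control. ECHDC1, ESYT3 and FOXC1 were then DE and ENOX1 was not, and the 57 DE genes split into 35 that rose and 22 that fell.

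Between IL-1β + IL1Ra and IL-1β, 0 of the 16705 genes tested (0%) were DE in limma without a block, and 464 had an unadjusted p under 0.05. With the block 1 gene (0.00599%) was DE, which was not one of the 7, and 1400 had an unadjusted p under 0.05. Between IL-1β + IL1Ra and control, 2 genes (0.0120%) were DE, or 42 (0.251%) with the block, and 0 of the 6 members tested were among them. The shift with IL1Ra in the 7 genes is therefore a description of 3 lines. At the same thresholds but with DESeq2, the study listed more DE genes in each comparison of the second batch than limma called here without a block. What sets the counts of the 2 methods apart was not tested.

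Lines differed in the size of the response to IL-1β, although its direction was the same in 8 of 8 lines for each gene. The log2 ratio of FOXC1 varied least over lines 1 to 5, with an SD of 0.32, and that of OLFML1 most, with an SD of 2.70. Lines 6 to 8 gave the opposite order for these 2 genes: OLFML1 had an SD of 0.30 over lines 6 to 8 and FOXC1 of 1.00. The SDs of OLFML1 rest on values near 0. With IL-1β it was at 0 in lines 1 and 3, so the pseudocount of 1 set their log2 ratios of −7.63 and −5.76. In lines 6 to 8 it had 1.13 to 4.28 normalised counts with IL-1β. LRRTM3 and IL17RB spread widely there, with SDs of 2.48 and 1.78, and line 8 had the strongest response for both. Over all genes tested, the median SD of the log2 ratio was 0.28 for lines 1 to 5 and 0.51 for lines 6 to 8.

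**Figure D2:**
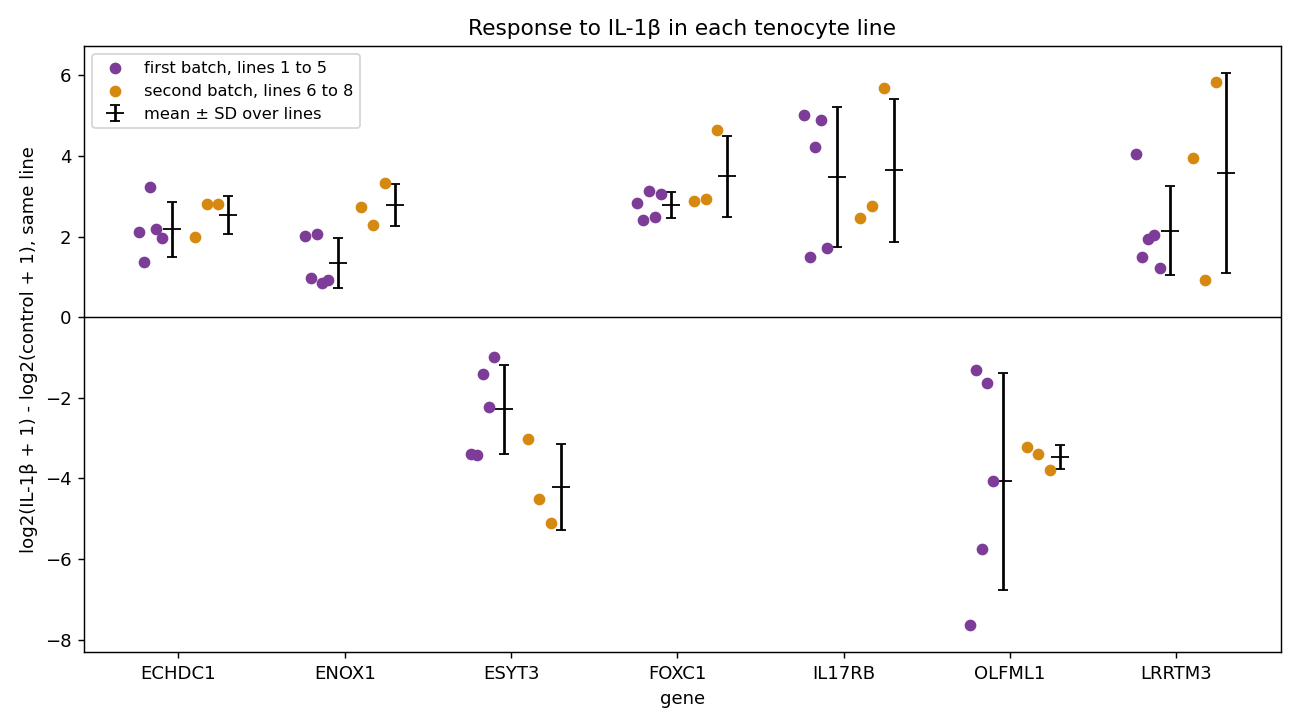
Difference between IL-1β and control of the same line, in log2(normalised count + 1), for each of the 7 genes. Points are lines (5 in the first batch, 3 in the second) and black bars are the mean ± SD over lines. All points of ESYT3 and OLFML1 lie below 0 and all points of the other 5 genes above it.

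Whether lines that responded strongly for 1 gene also did so for another was examined as the correlation of the 8 log2 ratios in each of 21 pairs of genes, with exact two-sided permutation tests. No pair passed at an adjusted p under 0.05 by Pearson's r or by Spearman's rho, and 2 pairs had an unadjusted p under 0.05 by r and 0 by rho. By r the strongest were ENOX1 with FOXC1 (r = 0.73, exact permutation p = 0.0139, adjusted p = 0.292; rho = 0.57, p = 0.151, adjusted p = 0.529) and ENOX1 with LRRTM3 (r = 0.73, exact permutation p = 0.0425, adjusted p = 0.406; rho = 0.38, p = 0.360, adjusted p = 0.743). By rho the strongest pair was IL17RB with LRRTM3 (rho = 0.71, exact permutation p = 0.0576, adjusted p = 0.529; r = 0.64, p = 0.0966, adjusted p = 0.406), and its r was 0.35 without the 2 lines farthest from the median of IL17RB. On the same check with ENOX1, r was 0.35 with FOXC1 and 0.54 with LRRTM3. With the mean of each batch removed, these were 0.61 (exact permutation p = 0.0994, adjusted p = 0.388) and 0.72 (exact permutation p = 0.0433, adjusted p = 0.388). ENOX1 and OLFML1 then had the largest value, an r of −0.78 (exact permutation p = 0.0123, adjusted p = 0.259), against −0.33 without that step. The pseudocount set the OLFML1 ratios of lines 1 and 3, at 0 with IL-1β, and these lines also had high ENOX1 ratios (2.00 and 2.06). It also set the LRRTM3 ratio of line 8, at 0 as control. How far the correlations rest on the pseudocount was not tested.

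The share of the IL-1β change that was left with IL1Ra was computed in each line as the log2 ratio of IL1Ra to control over that of IL-1β to control, where 0% is the level of control and 100% that of IL-1β. ECHDC1 kept 14.2%, 59.4% and 44.7% of its change in lines 6, 7 and 8, and ESYT3 33.1%, 60.4% and 35.0%. FOXC1 had values of −4.20%, 58.8% and 42.8%, so line 6 was at its control level and the others about midway. ENOX1 had 16.3%, −7.70% and 45.4% and IL17RB 31.6%, −13.4% and 34.9%, and for both genes line 7 passed slightly beyond its control. OLFML1 had −11.3%, −87.4% and 1.95%, the only gene of those given a share here with 2 lines beyond control. With IL-1β it had only 1.13 to 4.28 normalised counts in these lines, so the size of its shares depends on the pseudocount. No share is given for LRRTM3, whose values lay near the floor.

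Line 7 thus held the highest share of the 3 lines for ECHDC1, ESYT3 and FOXC1 and the lowest for ENOX1, IL17RB and OLFML1. For comparison, 1824 other genes DE in the first batch were followed where IL-1β changed them at least 2-fold in a line of the second batch. Their median share left was 37.6% in line 6 (1327 genes), 76.0% in line 7 (1253 genes) and 68.4% in line 8 (1152 genes). All 6 genes lay below that median in each line, which their selection for being moved back by IL1Ra makes a description only.

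**Figure D3:**
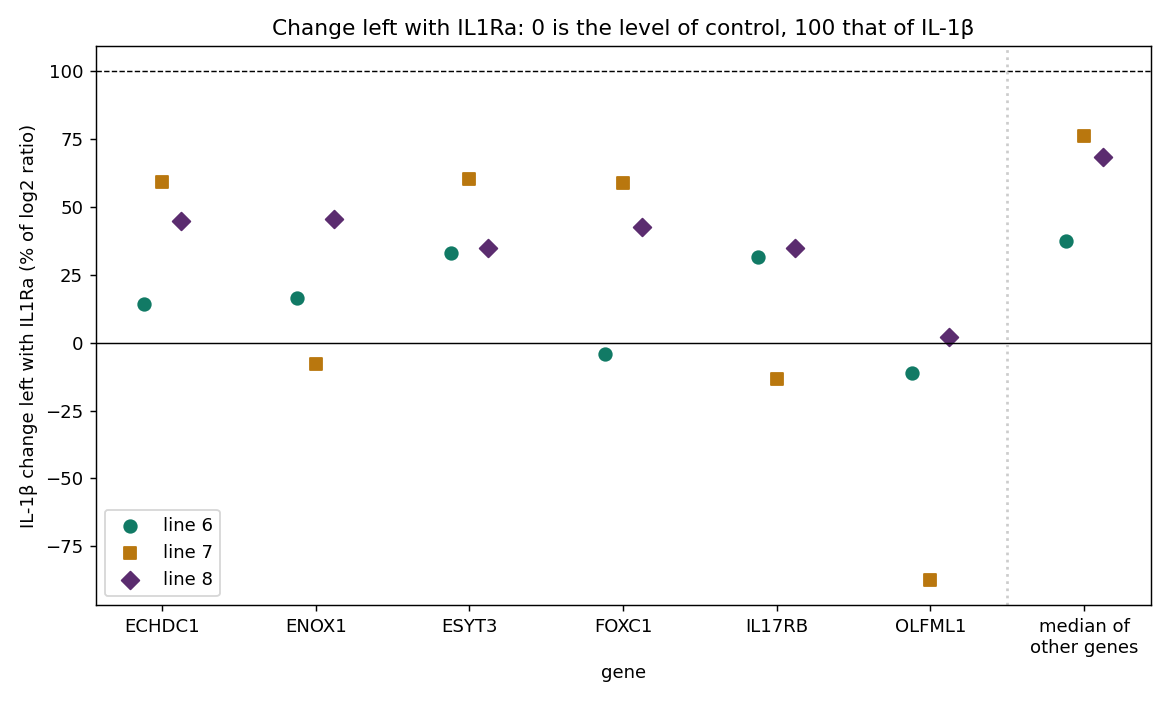
Percentage of the IL-1β change, on the log2 scale, that was left with IL1Ra in lines 6, 7 and 8, for 6 genes and as the median of other genes that were DE in the first batch and changed at least 2-fold in that line. The solid line at 0 is the level of control and the dashed line at 100 that of IL-1β. OLFML1 in line 7 lies lowest at −87.4%, a size that depends on the pseudocount, as OLFML1 had at most 4.28 normalised counts with IL-1β. The medians of the other genes are 37.6%, 76.0% and 68.4%.

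The genes that flank or overlap the 7 were not used to choose them, and their positions were read from a RefSeq table of a newer horse assembly than EquCab3.0, which the authors used, so no coordinates are given. All 7 matched that table, with 3 overlapping genes and 14 adjacent ones. Of these 17 genes 14 were tested in the first batch, and 4 were DE, CHDH, KIAA0408, GMDS and PPFIBP2, where 12.8% of all genes were. For IL-1β against control in the second batch, 0 of the 15 tested were DE in limma without a block, where 0.341% of all genes were. An unadjusted p under 0.05 was found for 8 of them and for 1907 of 16705 genes. With the block 5 were DE, CHDH, KIAA0408, PPFIBP2, CACNA1D and CEP70, where 5.18% of all genes were. Between IL1Ra and IL-1β 0 of the 15 were DE in limma with or without the block, where 0.00599% and 0% of all genes were. An unadjusted p under 0.05 was found for 6 and 3 of them, and for 1400 and 464 of 16705 genes.

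IL17RB overlaps CHDH, which encodes the mitochondrial enzyme choline dehydrogenase, and also ACTR8. CHDH had 11.6, 18.7, 2.85, 3.94 and 6.69 normalised counts in control lines 1 to 5 and 274, 46.3, 160.1, 118 and 71.2 with IL-1β, without overlap. Its log2-fold change was 3.78 ± 0.58 (SE, limma adjusted p = 0.00116). In lines 6 to 8 CHDH had 39.1, 27.7 and 39.7 as control, 283, 429.8 and 1526 with IL-1β, and 72.2, 33.0 and 299 with IL1Ra. The change of 3.99 ± 0.85 (SE) with IL-1β had a limma adjusted p of 0.118, or 0.0119 with the block. As for IL17RB, line 8 was the highest and line 7 with IL1Ra close to its control. Over the libraries CHDH correlated with IL17RB at 0.96 (10 libraries) and 0.97 (9 libraries), the highest mean of any of the genes compared with IL17RB. ACTR8 differed by 0.26 and 0.42 between IL-1β and control. The kit used marks strand, but whether strand was used in assigning reads is not given in the sources used here, so how reads of IL17RB and CHDH were shared out is uncertain.

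KIAA0408, the gene beside ECHDC1, had 9.86 to 39.7 normalised counts in control and 64.1 to 263 in IL-1β libraries of the first batch. This was a log2-fold change of 2.72 ± 0.45 (SE, limma adjusted p = 0.00185), and line 3 was the highest with IL-1β for KIAA0408 as for ECHDC1. For lines 6 to 8 it was 4.19 ± 0.70 (SE, limma adjusted p = 0.0570, or 0.00813 with the block). With IL-1β line 6 had the lowest ECHDC1 of these lines (6210 normalised counts) but the highest KIAA0408 (202). RNF146 on the other side of ECHDC1 differed by 0.35 and 0.43 in the first and second batch. GMDS, an enzyme of GDP-fucose synthesis that lies beside FOXC1, rose by 1.48 ± 0.16 (SE, limma adjusted p = 0.000212) in the first batch. The second batch gave 1.61 ± 0.49 (SE, limma adjusted p = 0.250), and there the control of line 6, at 980.0, nearly reached its IL-1β value of 1014. The forkhead gene FOXF2, on the other side, differed by −0.32 and 0.02.

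PPFIBP2, a liprin family gene beside OLFML1, moved the opposite way to OLFML1. It had 129, 48.4, 70.2, 66.2 and 25.7 normalised counts in control lines 1 to 5 and 196, 348, 327, 306 and 355 with IL-1β. This was a difference of 2.31 ± 0.38 on the log2 scale (SE, limma adjusted p = 0.00177), against −4.07 for OLFML1. In lines 6 to 8 it had 9.004, 28.9 and 30.4 as control, 361, 159 and 266 with IL-1β and 40.4, 28.0 and 81.6 with IL1Ra. That was 3.56 ± 0.60 (SE) with IL-1β (limma adjusted p = 0.0600, or 0.0161 with the block). CTNNA3, which overlaps LRRTM3, had at most 11.3 normalised counts in any library and failed the filter. The neighbours of ENOX1 (CCDC122 and DNAJC15) and ESYT3 (MRAS and CEP70) were not DE in the first batch. MRAS and CEP70 were lower with IL-1β there, as ESYT3 was, but by less than the threshold, at −0.48 and −0.75 (limma adjusted p = 0.0271 and 0.0432). The second batch gave −0.58 for MRAS (limma adjusted p = 0.690) and −1.50 for CEP70 (limma adjusted p = 0.155, or 0.0327 with the block).

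**Figure D4:**
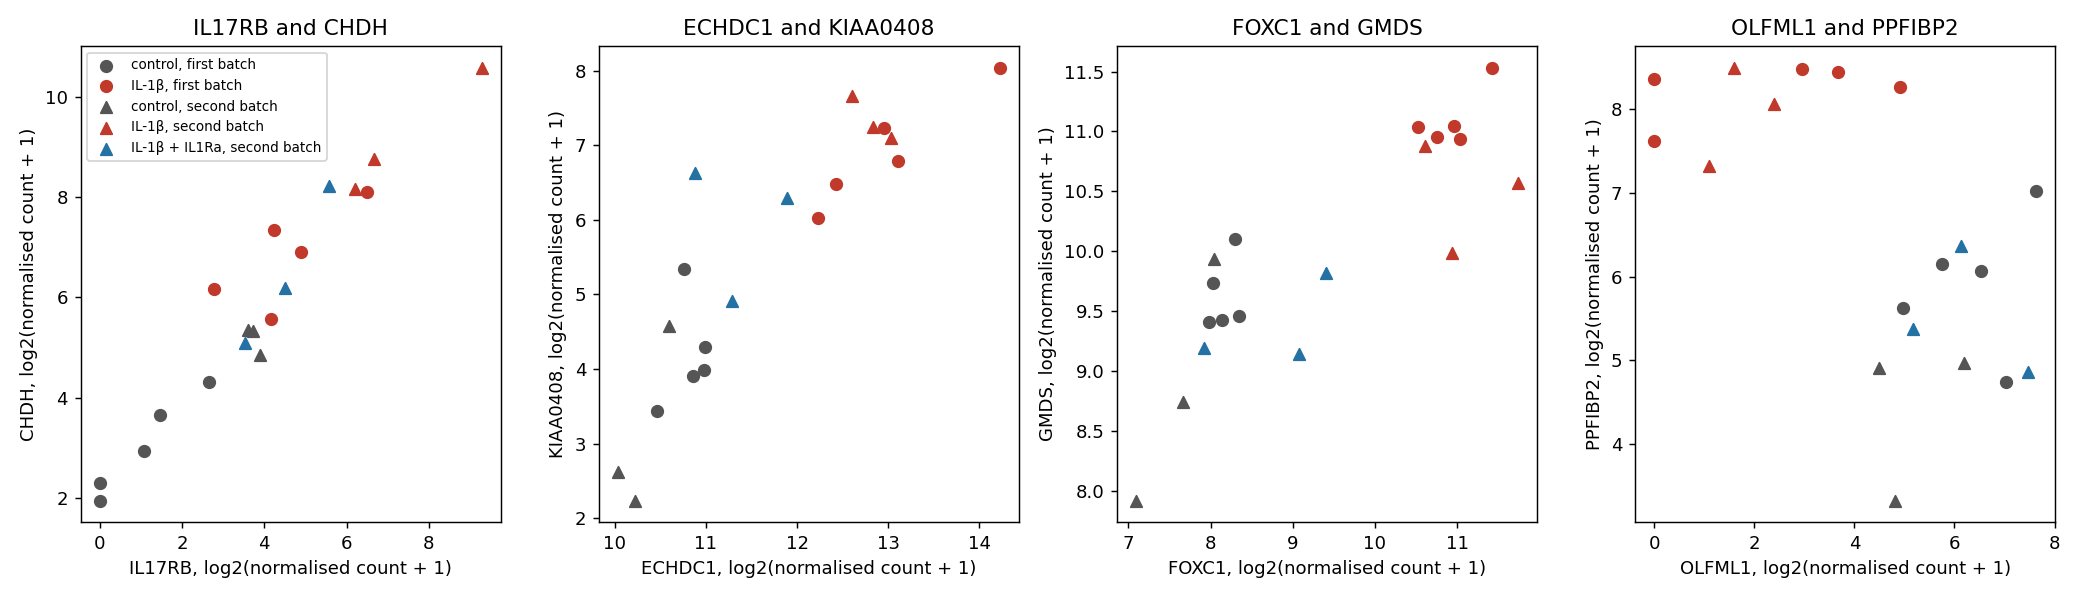
Each of 4 genes against a neighbouring or overlapping gene, both as log2(normalised count + 1), in 19 libraries. Circles are the first batch and triangles the second, grey is control, red IL-1β and blue IL-1β + IL1Ra. CHDH is mostly higher where IL17RB is higher, though not within the second batch controls. KIAA0408 and GMDS have higher means with IL-1β than in control, as ECHDC1 and FOXC1 do, and PPFIBP2 has a higher mean where OLFML1 has a lower one. Libraries of 1 condition need not follow this. With IL-1β in the second batch, line 6 is lowest for ECHDC1 and highest for KIAA0408, and line 7 lowest for FOXC1 and highest for GMDS.

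Relatives of each gene were followed from lists chosen with earlier results known, and their counts stand beside the 12.8% of all genes DE in the first batch. In the first batch, 1 of 10 acyl-CoA genes tested was DE, ECHDC3, which fell by 1.63 on the log2 scale, opposite to ECHDC1. Of 3 ecto-NOX and NADPH oxidase genes tested, CYBA, a membrane subunit of NADPH oxidase, rose by 1.17 and NOX4 fell by 1.38 on the log2 scale. The extended synaptotagmin and membrane contact site list had 11 genes tested, of which GRAMD1A and C2CD2L rose by 1.62 and 1.13 and 0 fell by at least 1 on the log2 scale. The closest relatives of ESYT3, named after their values were seen, were lower with IL-1β as ESYT3 was, but by less than the threshold of 1: ESYT1 by −0.52 ± 0.07 (SE, limma adjusted p = 0.000660) and ESYT2 by −0.90 ± 0.13 (SE, limma adjusted p = 0.000983). The second batch gave −0.44 and −0.91 for them (limma adjusted p = 0.590 and 0.377). Of 13 forkhead genes tested FOXC2, the closest relative of FOXC1, rose by 1.93, and FOXS1 and FOXP1 fell by 2.27 and 1.26 on the log2 scale.

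Among 6 genes of the IL-17 list tested, TRAF3IP2, the adaptor that IL-17 receptors share, rose by 1.74 and the receptor subunit IL17RE fell by 2.02 on the log2 scale. OLFML2B was the 1 gene of 5 tested in the olfactomedin list that was DE, with a rise of 1.17. In the list of LRRTM relatives and partners GPC4, 1 of 4 tested, fell by 2.07 on the log2 scale. The medians of these 7 lists lay between −1.23 and 0.34, beside −0.0034 over all genes tested. Of the 52 relatives tested in the second batch, 0 were DE in limma without a block for IL-1β against control, where 0.341% of all genes were. An unadjusted p under 0.05 was found for 13 relatives and for 1907 of 16705 genes. With the block 5.18% of all genes were DE for IL-1β against control. Among the relatives these were TRAF3IP2, IL17RE, GRAMD1A, C2CD2L and OLFML2B, each in the same direction as in the first batch.

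Since the 7 genes were put forward as contraction candidates, 12 genes of the contraction machinery were set beside them. In the first batch 4 of the 12 were DE, ACTA2, TAGLN, MYH10 and MYL9, which fell by 1.27, 1.90, 1.32 and 1.70 on the log2 scale, and 0 rose, where 12.8% of all genes tested were DE. With IL-1β in the second batch 0 of the 12 were DE in limma with or without the block, where 5.18% and 0.341% of all genes were. An unadjusted p under 0.05 was found for 5 and 2 of the 12, and for 3708 and 1907 of 16705 genes. The median log2-fold change of the list there was −0.76 for IL-1β against control, −0.11 for IL1Ra against IL-1β and −0.93 for IL1Ra against control. The same medians over all genes tested were −0.01, 0.01 and 0.01. These RNA values do not measure contraction, and the study reports that gels with IL-1β + IL1Ra contracted at rates similar to control. ACTA2, the smooth muscle actin, had means of 25437, 10497 and 10271 normalised counts in control, IL-1β and IL-1β + IL1Ra. Its value ranged from 6616 to 49745 over the 3 control libraries, so its conditions overlapped.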

How the data were processed

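Paired-end reads of mRNA libraries were quantified by the authors against the EquCab3.0 transcriptome (Salmon), collapsed to gene level (tximport) and normalised per batch (DESeq2 1.36 in R 4.2.1). The deposited signal values are these normalised counts, in 1 table per batch. Whole reads were not recovered (59.8% to 77.2% of low values lay within 0.1 of a whole read), so no count model was fitted and depth limits the low genes. Here, log2(normalised count + 1) was fitted with limma 3.58.1 in R 4.3.3 (trend), keeping genes that reached 10 normalised counts in 5 or more libraries of the first batch or 3 or more of the second. The 9 libraries of the second batch shared 1 fit, so its comparisons share control or IL-1β libraries. Fits with and without the block were run on simulated negative binomial counts with known changes. Recovery was required only of the blocked fit at the largest change, so this set no requirement on the fits without a block.

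The 7 genes, the lists and the tests were chosen with earlier results of these data known. Genes named are the 7, up to 4 DE genes of each list by size of change, and the 2 most similar genes of each, and the neighbours were added afterwards. Lines are donors, so line numbers pair libraries: deviations from the condition means correlated at 0.35 to 0.58 (5 pairs) and 0.54 to 0.79 (9 pairs) within a line, and at −0.36 to 0.29 and −0.62 to 0.25 between lines. The alternatives were the line as a block, a pseudocount of 5, no filter, scaling to equal sums or by a trimmed mean, adjusted p alone, and leaving out each line.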

Additional observations from a re-analysis of the deposited data

Results flagged for a closer look

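In 14 groups of 5 libraries of the first batch (7 genes in 2 conditions), the highest or lowest library was compared with the others by Dixon's ratio. The ratio was taken on normalised counts, not on the log2 scale used elsewhere. Chance passes it in about 1 of 20 groups where values are normally distributed, and more often where counts are skewed upward, so the libraries below are only flagged. With IL-1β, line 3 stood apart for ECHDC1 at 19140.2 normalised counts, where the other lines had 4818 to 8849.7. The same library stood apart for ENOX1 at 2769 normalised counts, where the others had 1046 to 1538. IL17RB stood apart in line 1 with IL-1β at 89.0 normalised counts, where the others had 5.88 to 28.8.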

How the results depend on the processing

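In the first batch 4078 genes were DE by adjusted p alone, and leaving out each line gave 1251 to 1592. For IL-1β against control in the second batch the tenocyte line as a block gave 865, and leaving out each line gave 0 to 339, with 0 to 4 of the members among them. Leaving out line 6, the highest, gave 339, and line 7 or line 8 gave 0. For IL1Ra against IL-1β the block gave 1 and leaving out each line 0 to 10. For IL1Ra against control the block gave 42, equal sums 1, and leaving out each line 0 to 61. The block changed no call of a member other than IL17RB and OLFML1 in the second batch. Without the filter, 7 of 7 members were DE in the first batch. The line as a block, no filter and adjusted p alone leave every log2-fold change as it was, so they could not move one. Of 266 log2-fold changes of members under all alternatives, these included, 264 moved by less than 1 SD between replicates. The exceptions, both with a pseudocount of 5, were OLFML1 for IL-1β against control in the second batch (−2.46) and LRRTM3 for IL1Ra against IL-1β (−2.50). The sign changed only for LRRTM3 between IL1Ra and control, which was 0.03 without line 7. The cause of these changes was not tested.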

Other observations

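The 2 genes whose log2 values followed each of the 7 most closely, by the mean of Pearson's r over the 10 libraries of the first and the 9 of the second batch among about 12342 genes, were found as a description. The libraries share their condition, which sets much of the spread. FOXC1 was closest to MIOS (mean r of 0.98) and to IL13RA2 (0.98), the decoy receptor of interleukin-13. ECHDC1 was closest to ST13 (0.96) and YIPF4 (0.96), and ENOX1 to KAT2B (0.93) and PREX1 (0.93). IL17RB was closest to CHDH (0.96), the gene that overlaps it, and then to MKL1 (0.93). ESYT3 was closest to IQGAP2 (0.91) and BCL7A (0.91), and OLFML1 to MST1R (0.91), a receptor tyrosine kinase, and LITAF (0.90). LRRTM3 was closest to RPRD1A (0.87) and to ENOX1 (0.85), the 1 case in which a member was among the closest genes of another.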
